A study of Mus musculus with 9 samples.

Results

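The 42 genes described here encode kinases and sensors of the DNA damage checkpoint and the main enzymes of DNA repair. They were chosen by symbol, from what their proteins are known to do, out of the 24411 gene symbols of a bulk RNA-seq table of mouse macrophage lines. The choice was made with earlier results of these data known. The table covered 9 lines from C57BL/6 mice with no transgene, deletion or drug treatment stated, and each line was sequenced once. The 3 YS lines had been grown from the yolk sac of E9.5 embryos, the 3 FL lines from the fetal liver of E14.5 embryos, and the 3 BM lines from the bone marrow of adult mice. All 9 were dividing macrophages kept in medium with serum and the same concentration of recombinant human M-CSF, a growth factor that macrophages need to survive. Cells of more than 1 mouse were pooled at the start, and a line was the bulk culture grown from a separate dish or well after months of culture. By the paper's methods, the time until growth was stable was shortest for YS and longest for BM lines. The sources do not say that the lines of a group came from separate animals, so p-values measure the spread between lines, which are populations that outgrew the starting culture and not freshly isolated cells.

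Cells meet broken or altered DNA with kinases of the ATM and ATR family, which stop the cell cycle, and with repair enzymes matched to the kind of lesion. Double-strand breaks are rejoined directly by end joining or copied from the sister chromatid by homologous recombination, crosslinks are handled by the Fanconi anemia pathway, altered bases are cut out by base excision, bulky lesions by nucleotide excision, and copying errors by mismatch repair. Many of these genes are transcribed most strongly in dividing cells around the time of DNA replication, and macrophages make oxidants that can damage the bases of their own DNA.

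The deposited values were TPM, in which read estimates are divided by transcript length and scaled to the same total in each library, so levels of different genes can be set side by side but the depth of a library is unknown. Differences were computed on log2(TPM + 1), which understates the change of genes with low TPM, and were tested with limma over all 9 libraries for 11753 genes that reached 1 TPM in 3 or more libraries. There were 2 thresholds. A gene was past the rate (the false discovery rate) at an adjusted p under 0.1, and was called where it also changed by more than 2-fold. All 8 macrophage markers on a fixed list reached 1 TPM in every group, with a summed level of 4003 to 9062 TPM in YS, 11533 to 28262 TPM in FL and 11485 to 13088 TPM in BM lines. By this sum every YS line was below every FL and BM line. Lyz2 was the highest single marker in each group, at up to 3531 TPM in YS, 21976 TPM in FL and 7841 TPM in BM lines. By gene, 1 of the 8 markers was past the rate and higher in YS than in BM lines, against 23.5% of all tested genes. Another 1 was past it and lower, against 14.4%. In YS against FL lines none was higher and 2 were lower, against 6.2% and 6.56%. In FL against BM lines 2 were higher and none lower, against 17% and 10.6%. The median log2 difference of the 8 markers was -0.17 for YS against BM, 0.34 for FL against BM and -0.62 for YS against FL lines. Of the markers of other cell types, those of mast cells, fibroblasts and lymphocytes summed to at most 1.42 TPM in a line. Erythroid markers reached 217 TPM in 1 BM line, almost all from Hba-a1, endothelial markers 5.37 to 56.04 TPM in YS and 18.9 to 51.8 TPM in FL but at most 1.70 TPM in BM lines, almost all from Kdr in the highest lines, granulocyte markers 25.1 TPM and hepatocyte markers 20.6 TPM in FL lines, and the part of these marker levels, those of macrophages included, in the results below was not tested. Line BM2 held transcripts nearly absent from BM1 and BM3. For 45 genes under 0.5 TPM in BM1 and BM3 and at 20 TPM or more in YS2, BM2 held a median of 14.1% of the YS2 level. The levels of these genes in YS1, YS3 and the FL lines were not part of this choice, and where the transcripts in BM2 came from was not tested. Counts are therefore also given without BM2.

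Every one of the 42 genes was expressed in the lines and passed the filter on low values. Parp1, which encodes the main poly(ADP-ribose) polymerase, had the highest mean over the 9 lines at 150 TPM, followed by Rpa1, a subunit of the single-strand DNA binding complex, at 145 TPM and Lig1, the DNA ligase of replication and long-patch repair, at 100.5 TPM. Xrcc5, which encodes the larger Ku subunit, had the lowest mean at 2.08 TPM, followed by the Fanconi gene Fancc at 5.87 TPM and Brca2, a gene of homologous recombination, at 7.37 TPM. The summed level of the 42 genes was 1712 ± 223 TPM in the YS, 1292 ± 104 TPM in the FL and 1198 ± 32.5 TPM in the BM lines (mean ± SD, n = 3 for each group). The lowest YS line, at 1544 TPM, was above the highest FL line, at 1392 TPM, and the highest BM line, at 1233 TPM. In these bulk samples a smaller share of dividing cells and less RNA of a gene per cell cannot be told apart.

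**Figure D1:**
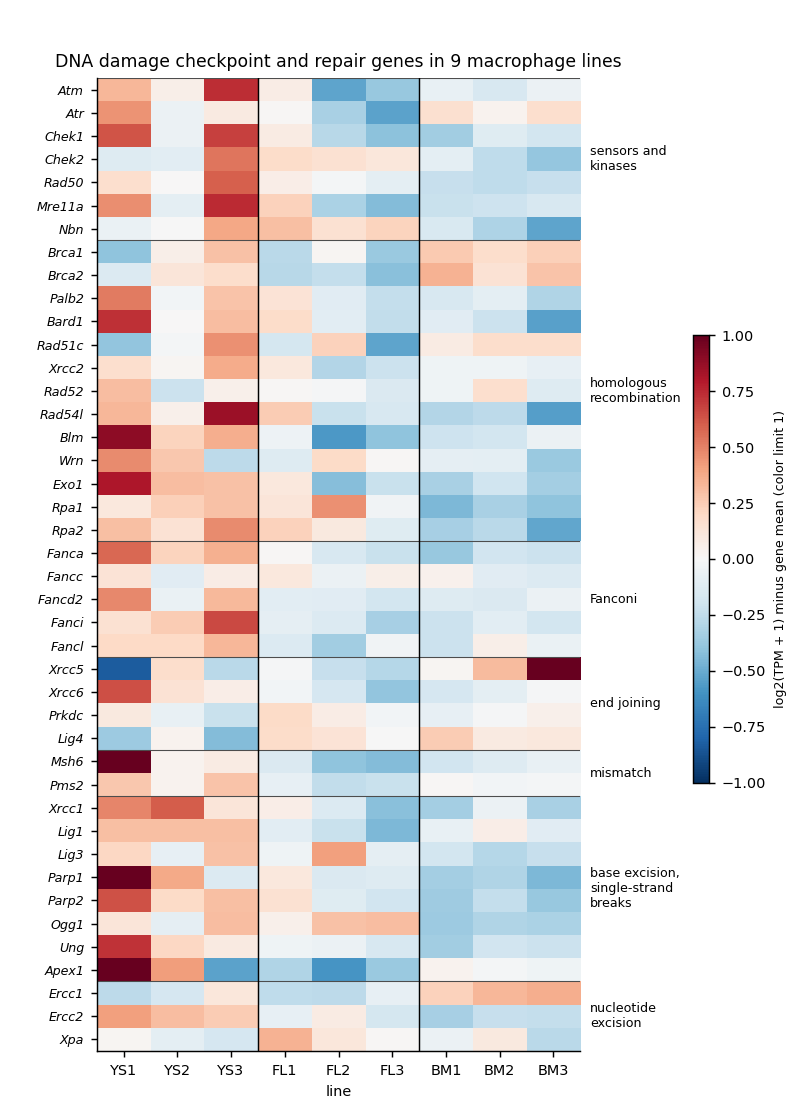
Levels of the 42 genes (rows, grouped by role) in the 9 lines (columns), as log2(TPM + 1) minus the mean of that gene over the 9 lines, with red for higher and blue for lower and the color limit at 1. Most rows are red in YS1 and YS3, paler in YS2 and blue in BM lines, while Ercc1, Brca1 and Brca2 are red in BM lines.

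Of the 42 genes, none was called by limma when YS were compared with BM lines, where 12.8% of all tested genes were called. The largest change was that of Xrcc5, 1.73-fold lower in YS lines and not past the rate. With a mean of 2.08 TPM, its fold change is understated on the scale of log2(TPM + 1). None was called for FL against BM lines, where 10.3% of all tested genes were and the largest change was again Xrcc5, 1.58-fold lower in FL lines. None was called for YS against FL lines, where 3.79% were and the largest change was Apex1, 1.81-fold higher in YS lines. Neither change was past the rate. At an unadjusted p under 0.05, in the same order, 25, 7 and 19 of the 42 genes passed, against 41.2%, 33.6% and 25.7% of all tested genes. The differences of these genes were moderate in size on this scale, and the descriptions below turn on the adjusted p alone.

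Between YS and BM lines, 22 of the 42 genes (52.4%) were past the rate, against 37.9% of all tested genes. Of these, 20 were higher in YS lines, where 23.5% of all tested genes were past the rate and higher, and 2 were lower, against 14.4%. The median log2 difference was 0.44 over the 42 genes and 0.11 over all tested genes, and 34 of the 42 differences were above 0, as were 58.8% of all. Between YS and FL lines, 8 genes (19.05%) were past the rate, all higher in YS lines, against 12.8% of all tested genes in either direction, 6.2% in the higher and 6.56% in the lower direction. The median log2 difference was 0.38 over the 42 genes and 0.021 over all tested genes, with 34 of 42 differences above 0, against 52.1% of all. Between FL and BM lines, 6 genes (14.3%) were past the rate, 4 higher and 2 lower in FL lines, which was a smaller share than the 27.6% of all tested genes, with 17% and 10.6% of all genes in those directions. The median log2 difference was 0.049, near the 0.091 of all genes, and 23 of the 42 differences were above 0, as were 59% of all. The median of the 42 genes minus that of all tested genes was 0.33 for YS against BM, -0.042 for FL against BM and 0.36 for YS against FL lines, and with quantile normalization, which brings the median of all genes to about 0, it was 0.32, -0.049 and 0.36. The counts past the rate moved too. For YS against BM lines, quantile normalization gave 13 higher and 3 lower genes (38.1% of the 42, against 36.1% of all tested genes), and median-of-ratios scaling 15 higher and 2 lower (40.5%, against 37.04%). For FL against BM lines, the split of 4 higher and 2 lower became 4 higher and 5 lower with either scaling. The comparisons share samples, so each is given with its own values and they do not count as separate evidence. Because the 42 genes were chosen with earlier results of these data known, the shares describe this list only.

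**Figure D2:**
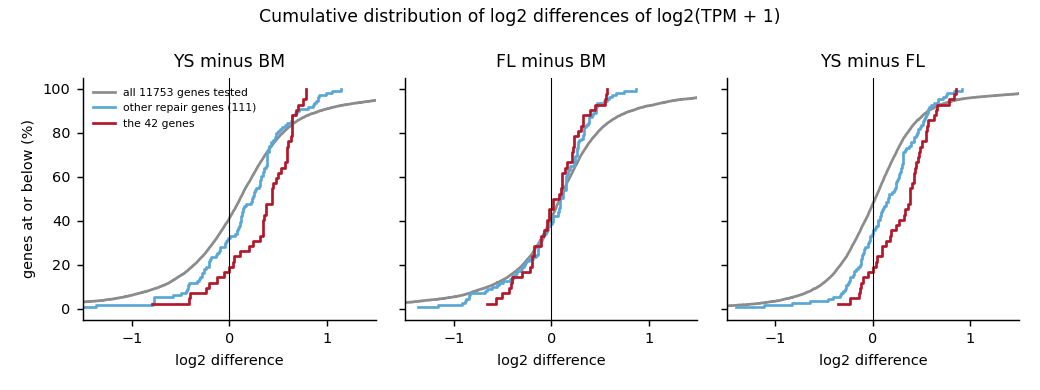
Cumulative share of genes (vertical axis, in percent) at or below each log2 difference (horizontal axis) for the 42 genes (red), the 111 tested genes of a wider repair list (light blue) and all 11753 tested genes (grey), 1 panel per comparison. Over most of its range the red curve lies to the right of the grey one where YS lines are compared with BM lines (median 0.44) or FL lines (median 0.38), and for FL against BM lines it crosses the grey one near 0.

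These counts depended on single lines. Without BM2, 13 genes (31.0%) were past the rate between YS and BM lines, against 27.7% of all tested genes. Without BM1 the count was 11 (26.2%), against 22.4% of all, and without BM3 it was 9 (21.4%), against 21.9% of all, so that the share of the 42 genes was no longer above that of all genes. The 8 genes between YS and FL lines became 13 without YS2 and 12 without YS3, against 14.7% and 15.3% of all tested genes, and 5 without YS1, against 11.2% of all. They became 1 without FL2 and none without FL3, against 2.502% and 2.34% of all. Without any 1 of the BM lines, which enter that comparison only through the shared estimate of spread, the count was 2, against 5.36% to 6.08% of all. With only the 6 YS and FL libraries fitted, none was past the rate, against 0.834% of all. Between FL and BM lines the 6 genes became 4 without BM1 and 2 without BM3, against 15.9% and 15.04% of all. Over the 42 genes, the median difference of YS against BM lines stayed between 0.34 and 0.51, and that between YS and FL lines between 0.30 and 0.45, whichever line was left out.

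The first group holds 7 genes, the checkpoint kinases Atm, Atr, Chek1 and Chek2 and the subunits Rad50, Mre11a and Nbn of the complex that binds broken ends and recruits ATM. All 7 differences between YS and BM lines were above 0, as were 58.8% over all tested genes, and 3 genes were past the rate and higher, against 23.5% of all. Chek1, the kinase that ATR activates at stalled replication forks, stood at 23.8, 14.4 and 24.8 TPM in YS1 to YS3, 15.97, 12.2 and 11.1 TPM in FL1 to FL3, and 11.6, 13.8 and 13.1 TPM in BM1 to BM3. YS1 and YS3 were the highest lines and YS2 lay above all BM lines but below FL1. The log2 difference between YS and BM lines was 0.64 ± 0.22 (SE, adjusted p = 0.0618), and that between YS and FL lines was 0.62 ± 0.22 (SE, adjusted p = 0.126). Rad50, the ATPase of the end-binding complex, was at 39.5, 35.02 and 53.5 TPM in YS1 to YS3, 36.8, 34.6 and 32.7 TPM in FL1 to FL3, and 29.6, 29.2 and 29.7 TPM in BM1 to BM3. YS lines were all above BM lines, with a log2 difference of 0.50 ± 0.15 (SE, adjusted p = 0.0419), while YS2 lay within the range of FL lines. Nbn, the subunit that recruits ATM, was at 28.7, 30.04 and 39.7 TPM in YS1 to YS3, 37.2, 33.6 and 35.3 TPM in FL1 to FL3, and 26.9, 24.02 and 20.5 TPM in BM1 to BM3. All YS and all FL lines were above all BM lines, and YS and FL lines overlapped. Its log2 difference was 0.44 ± 0.15 (SE, adjusted p = 0.0622) between YS and BM lines and 0.56 ± 0.15 (SE, adjusted p = 0.0348) between FL and BM lines.

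The remaining 4 genes of the group were past the rate in no comparison. Mre11a, the nuclease of the same complex, was at 51.03, 34.3 and 62.3 TPM in YS1 to YS3, 43.2, 29.2 and 26.9 TPM in FL1 to FL3, and 31.3, 31.7 and 32.8 TPM in BM1 to BM3, and its log2 difference between YS and BM lines was 0.57 ± 0.24 (SE, adjusted p = 0.104). No YS line was as low as a BM line, but YS1 and YS3 were well above YS2. Atm, the kinase of double-strand breaks, was at 20.4, 16.7 and 27.4 TPM in YS1 to YS3, 16.9, 10.8 and 12.1 TPM in FL1 to FL3, and 15.2, 14.2 and 15.4 TPM in BM1 to BM3. Its lowest YS line lay just below FL1, and the log2 difference between YS and FL lines, 0.65 ± 0.21 (SE, adjusted p = 0.1002), was next to the threshold. Atr stood at 17.3 ± 3.39 TPM in the YS, 12.5 ± 2.60 TPM in the FL and 16.7 ± 0.898 TPM in the BM lines (mean ± SD, n = 3), with every FL line below every BM line. Chek2, the effector kinase of ATM, had nearly the same mean in YS and FL lines, at 50.2 and 50.9 TPM, and a mean of 38.6 TPM in BM lines, and its FL lines were all above the BM lines.

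Homologous recombination was the largest group, with 13 genes. All 13 differences between YS and FL lines were above 0, where 52.1% of all tested genes were, and 2 were past the rate and higher, against 6.2% of all. Between YS and BM lines, 10 were above 0 and 7 were past the rate, all higher in YS lines, against 58.8% and 23.5% of all. Between FL and BM lines, 2 were past the rate and higher and 1 was past it and lower, against 17% and 10.6% of all.

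Blm encodes a helicase that resolves recombination intermediates and also helps to resect broken ends. It was at 40.8, 25.2 and 27.9 TPM in YS1 to YS3, 20.6, 14.1 and 15.97 TPM in FL1 to FL3, and 18.4, 18.8 and 20.6 TPM in BM1 to BM3. All YS lines were clear of the other 6, YS1 stood apart at the top, and FL and BM lines overlapped. The log2 difference was 0.64 ± 0.20 (SE, adjusted p = 0.0441) between YS and BM lines and 0.84 ± 0.20 (SE, adjusted p = 0.0542) between YS and FL lines, the latter a change of 1.79-fold. Exo1, the exonuclease of end resection and mismatch repair, was at 21.9, 15.2 and 15.02 TPM in YS1 to YS3, 13.1, 8.75 and 10.2 TPM in FL1 to FL3, and 9.46, 10.4 and 9.37 TPM in BM1 to BM3. Again every YS line was above every other line, with YS1 the highest. Its log2 difference was 0.76 ± 0.19 (SE, adjusted p = 0.0213) between YS and BM lines and 0.65 ± 0.19 (SE, adjusted p = 0.0834) between YS and FL lines. Rad54l, a DNA translocase of homologous recombination, was at 45.3, 37.00 and 65.3 TPM in YS1 to YS3, 42.7, 30.5 and 31.8 TPM in FL1 to FL3, and 28.9, 29.7 and 24.1 TPM in BM1 to BM3. All YS lines and all FL lines were above all BM lines, but FL1 was above YS2. The log2 difference between YS and BM lines was 0.78 ± 0.22 (SE, adjusted p = 0.0301), and that between YS and FL lines was 0.46 ± 0.22 (SE, adjusted p = 0.224).

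Bard1, the partner of BRCA1 in a ubiquitin ligase, was at 21.2, 12.4 and 15.6 TPM in YS1 to YS3, 14.2, 11.5 and 10.3 TPM in FL1 to FL3, and 11.4, 10.5 and 8.17 TPM in BM1 to BM3. YS lines were all above BM lines, and FL1 was above YS2. Against BM lines, the log2 difference of YS lines was 0.64 ± 0.22 (SE, adjusted p = 0.0587). Palb2, which joins BRCA1 to BRCA2, was at 20.2, 13.5 and 17.04 TPM in YS1 to YS3, 15.3, 12.7 and 11.6 TPM in FL1 to FL3, and 12.3, 12.8 and 11.01 TPM in BM1 to BM3. YS lines were all above BM lines by a small margin in YS2, with a log2 difference of 0.44 ± 0.17 (SE, adjusted p = 0.0872). Brca1 itself did not share this pattern: it was at 26.01, 36.1 and 42.7 TPM in YS1 to YS3, 28.6, 35.2 and 26.5 TPM in FL1 to FL3, and 41.7, 39.3 and 41.1 TPM in BM1 to BM3, its FL lines were all below its BM lines, and the log2 difference between YS and BM lines was -0.24 ± 0.18 (SE, adjusted p = 0.343). Brca2 was at 6.48, 7.97 and 8.29 TPM in YS1 to YS3, 5.79, 5.99 and 5.17 TPM in FL1 to FL3, and 9.48, 8.12 and 9.02 TPM in BM1 to BM3. FL lines were all below both YS and BM lines, and YS and BM lines overlapped. Its log2 difference between FL and BM lines, -0.57 ± 0.15 (SE, adjusted p = 0.02902), was the only one of the group past the rate in the lower direction, and that between YS and FL lines was 0.36 ± 0.15 (SE, adjusted p = 0.171).

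Rpa1 and Rpa2 encode 2 subunits of replication protein A, which coats single-stranded DNA in replication and repair. Rpa1 was at 153, 168 and 174 TPM in YS1 to YS3, 154, 195 and 139 TPM in FL1 to FL3, and 104, 113 and 107 TPM in BM1 to BM3. Every YS and FL line was above every BM line, YS and FL lines overlapped, and FL2 was the highest of all 9. Its log2 difference was 0.60 ± 0.13 (SE, adjusted p = 0.0129) for YS and 0.57 ± 0.13 (SE, adjusted p = 0.0182) for FL lines against BM lines, and 0.032 ± 0.13 (SE, adjusted p = 0.898) for YS against FL lines. Rpa2 was at 84.1, 75.3 and 94.5 TPM in YS1 to YS3, 80.1, 72.6 and 62.6 TPM in FL1 to FL3, and 53.7, 56.2 and 46.99 TPM in BM1 to BM3. Here too no YS or FL line reached down to the BM lines, with log2 differences of 0.68 ± 0.13 (SE, adjusted p = 0.00866) for YS lines and 0.45 ± 0.13 (SE, adjusted p = 0.0479) for FL lines. The remaining 4 genes of the group, Rad51c, Xrcc2, Rad52 and Wrn, were past the rate in no comparison, and their log2 differences lay between -0.30 for Rad51c between FL and BM lines and 0.35 for Wrn between YS and BM lines.

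The promoters of these genes were read to see what sequence the members share. RefSeq windows of GRCm38.p6, from 250 bases before to 50 bases after each start, were given for 35 of the 42 genes and not for Rad50, Nbn, Xrcc2, Wrn, Exo1, Fancd2 and Prkdc. Each window was searched on both strands for TTTCCCGC, TTTCGCGC, TTTGCCGC and TTTGGCGC, sequences of the type bound by E2F factors, which drive genes of DNA replication. At least 1 of these words was in the windows of 7 of the 35 genes (20%), namely Chek2, Brca2, Bard1, Rad51c, Xrcc6, Msh6 and Lig1, against 2.60% of the 27025 genes with a window. Of the 17 genes with a window that were past the rate and higher in YS than in BM lines, Bard1 and Lig1 held a word, and of the 7 with a window that were past it for YS against FL lines, Lig1 did. The 250 bases before the start are shown for 4 genes chosen after their values were seen. Bard1 and Brca2 are both genes of homologous recombination that each hold a word, given in capitals, and differ in their pattern over the groups. Blm and Ercc2 were higher in every YS line than in every other line and hold none of the words in this window.
Bard1 (chr1:71102973-71103222, minus strand): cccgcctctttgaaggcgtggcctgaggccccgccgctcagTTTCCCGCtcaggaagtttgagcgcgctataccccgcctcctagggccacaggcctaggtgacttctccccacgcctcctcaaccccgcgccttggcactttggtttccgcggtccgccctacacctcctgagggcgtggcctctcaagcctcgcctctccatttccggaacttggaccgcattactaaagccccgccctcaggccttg
Brca2 (chr5:150522371-150522620, plus strand): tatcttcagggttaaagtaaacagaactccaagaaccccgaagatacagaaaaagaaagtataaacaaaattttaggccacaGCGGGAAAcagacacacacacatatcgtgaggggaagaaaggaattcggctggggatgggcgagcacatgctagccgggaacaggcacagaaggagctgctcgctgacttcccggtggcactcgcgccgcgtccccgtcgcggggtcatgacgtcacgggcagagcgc
Blm (chr7:80534999-80535248, minus strand): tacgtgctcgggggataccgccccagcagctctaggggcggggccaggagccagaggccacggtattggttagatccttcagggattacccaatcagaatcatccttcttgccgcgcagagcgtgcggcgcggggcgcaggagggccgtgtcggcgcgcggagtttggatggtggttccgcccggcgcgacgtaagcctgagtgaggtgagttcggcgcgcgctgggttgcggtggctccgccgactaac
Ercc2 (chr7:19381767-19382016, plus strand): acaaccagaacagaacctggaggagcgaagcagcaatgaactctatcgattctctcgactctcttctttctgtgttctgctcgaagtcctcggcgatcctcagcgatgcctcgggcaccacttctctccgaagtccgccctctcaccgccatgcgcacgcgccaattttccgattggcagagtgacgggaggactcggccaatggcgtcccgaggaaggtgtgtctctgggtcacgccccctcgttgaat
Each is written 5′ to 3′ on the strand of the gene. In Brca2 the word is read on the opposite strand, as GCGGGAAA. The genome build behind the deposited TPM is not given in the sources used here, so these positions belong to the RefSeq build alone. A match is a description of the letters and not a binding site.

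In the Fanconi group, 5 genes stood close to each other in level, apart from Fancc. All 5 differences between YS and BM lines were above 0 and 3 genes were past the rate and higher, against 58.8% and 23.5% of all tested genes. Fanca, a scaffold subunit of the core ubiquitin ligase, was at 37.2, 28.98 and 31.8 TPM in YS1 to YS3, 24.99, 22.1 and 21.1 TPM in FL1 to FL3, and 18.8, 21.5 and 21.2 TPM in BM1 to BM3. Every YS line was above every other line, and FL and BM lines lay close together with FL1 at their top. The log2 difference was 0.64 ± 0.13 (SE, adjusted p = 0.00989) between YS and BM lines and 0.50 ± 0.13 (SE, adjusted p = 0.0642) between YS and FL lines. Fanci, which the ligase marks with ubiquitin together with FANCD2, was at 21.5, 23.03 and 30.9 TPM in YS1 to YS3, 17.9, 17.4 and 15.00 TPM in FL1 to FL3, and 16.4, 17.8 and 16.7 TPM in BM1 to BM3. The lowest YS line was above the highest FL and BM lines, YS3 was the highest, and the log2 differences were 0.53 ± 0.15 (SE, adjusted p = 0.0355) and 0.54 ± 0.15 (SE, adjusted p = 0.0757) against BM and FL lines. Fancl, the ligase subunit with the catalytic RING domain, was at 27.5, 27.4 and 30.2 TPM in YS1 to YS3, 21.5, 18.5 and 23.1 TPM in FL1 to FL3, and 20.4, 24.9 and 22.7 TPM in BM1 to BM3. YS lines again stood above all others, by a small margin over BM2, and the log2 differences were 0.32 ± 0.13 (SE, adjusted p = 0.0969) against BM lines and 0.42 ± 0.13 (SE, adjusted p = 0.0911) against FL lines. Fancd2, the partner of Fanci, was at 32.3, 21.8 and 28.96 TPM in YS1 to YS3, 21.2, 21.1 and 20.1 TPM in FL1 to FL3, and 20.8, 20.6 and 21.9 TPM in BM1 to BM3. YS2 was only just above FL1 and below BM3, and the log2 differences were 0.36 ± 0.15 (SE, adjusted p = 0.1001) against BM lines, at the threshold, and 0.38 ± 0.15 (SE, adjusted p = 0.152) against FL lines. Fancc, another subunit of the core complex, was at 6.54, 5.35 and 6.23 TPM in YS1 to YS3, 6.38, 5.60 and 6.15 TPM in FL1 to FL3, and 6.05, 5.33 and 5.23 TPM in BM1 to BM3. All groups overlapped, and its log2 differences were between -0.0029 and 0.11.

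The end joining group holds 4 genes, of which 3 had a log2 difference below 0 for YS against BM lines, 3 for FL against BM lines and 3 for YS against FL lines. Lig4, the ligase that seals the break, was at 5.56, 7.64 and 5.24 TPM in YS1 to YS3, 8.56, 8.29 and 7.43 TPM in FL1 to FL3, and 9.06, 7.96 and 8.09 TPM in BM1 to BM3. YS lines were all below BM lines, and YS2 lay above FL3. Its log2 difference between YS and BM lines was -0.40 ± 0.16 (SE, adjusted p = 0.0992), just past the rate. Xrcc5 was at 0.62, 2.25 and 1.39 TPM in YS1 to YS3, 1.86, 1.45 and 1.37 TPM in FL1 to FL3, and 1.92, 2.58 and 5.27 TPM in BM1 to BM3. These are low values, BM3 was the highest of all lines and YS1 the lowest, and YS and BM lines overlapped through YS2. The log2 difference between YS and BM lines was -0.79 ± 0.35 (SE, adjusted p = 0.121). Leaving out YS2 moved it to -1.03 with an adjusted p of 0.0743, which met both thresholds. Xrcc6, which encodes the other Ku subunit, was at 70.2, 49.3 and 46.7 TPM in YS1 to YS3, 43.7, 39.5 and 33.6 TPM in FL1 to FL3, and 39.5, 41.6 and 44.1 TPM in BM1 to BM3. The YS lines were the 3 highest, and the log2 differences were 0.38 ± 0.17 (SE, adjusted p = 0.125) against BM lines and 0.48 ± 0.17 (SE, adjusted p = 0.122) against FL lines. The mean level of Xrcc6 was 21.8 times that of Xrcc5, with ratios from 8.36 to 113 in single lines. The highest ratio was in YS1, where Xrcc5 was at 0.62 TPM. These are ratios of RNA that rest on low Xrcc5 values, and the 2 Ku proteins, which act as a pair, were not measured. Prkdc, the catalytic subunit of the kinase that Ku recruits, was at 8.81, 7.71 and 6.87 TPM in YS1 to YS3, 9.48, 8.68 and 7.99 TPM in FL1 to FL3, and 7.66, 8.09 and 8.50 TPM in BM1 to BM3. Its groups overlapped, and no difference was over 0.15 in size.

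The 2 mismatch repair genes were past the rate in no comparison. Msh6, a mismatch recognition protein, was at 91.5, 38.7 and 40.2 TPM in YS1 to YS3, 34.1, 28.4 and 27.8 TPM in FL1 to FL3, and 32.99, 34.5 and 35.9 TPM in BM1 to BM3. The 3 highest were again the YS lines, but YS1 was far above the rest, and the log2 differences were 0.59 ± 0.29 (SE, adjusted p = 0.162) against BM lines and 0.78 ± 0.29 (SE, adjusted p = 0.142) against FL lines. Pms2, the endonuclease subunit, was at 17.5, 14.7 and 17.7 TPM in YS1 to YS3, 13.5, 11.9 and 12.1 TPM in FL1 to FL3, and 14.5, 14.1 and 14.2 TPM in BM1 to BM3. All YS lines were above all others by a small margin, and all FL lines were below all BM lines. The log2 difference between YS and FL lines was 0.38 ± 0.12 (SE, adjusted p = 0.102), next to the threshold.

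Base excision and single-strand break repair was represented by 8 genes. All 8 differences between YS and BM lines were above 0, and 6 genes were past the rate, all higher in YS lines, against 58.8% and 23.5% of all tested genes. Lig1 was at 122, 122 and 122 TPM in YS1 to YS3, 92.2, 84.7 and 72.2 TPM in FL1 to FL3, and 93.9, 104 and 91.3 TPM in BM1 to BM3. The YS lines had an SD of only 0.118 TPM and were above all other lines, and FL1 lay within the lower part of the BM range. Its log2 difference was 0.56 ± 0.11 (SE, adjusted p = 0.0353) between YS and FL lines, the lowest adjusted p of the 42 genes in that comparison, and 0.34 ± 0.11 (SE, adjusted p = 0.0487) between YS and BM lines. Xrcc1, the scaffold of single-strand break repair, was at 66.9, 72.6 and 51.6 TPM in YS1 to YS3, 49.8, 43.03 and 35.4 TPM in FL1 to FL3, and 37.3, 45.6 and 37.8 TPM in BM1 to BM3. No FL or BM line reached the lowest YS line, and the log2 differences were 0.64 ± 0.17 (SE, adjusted p = 0.0266) against BM lines and 0.56 ± 0.17 (SE, adjusted p = 0.0908) against FL lines. Parp2, the second break-sensing poly(ADP-ribose) polymerase, was at 92.02, 67.5 and 72.7 TPM in YS1 to YS3, 65.5, 54.2 and 51.6 TPM in FL1 to FL3, and 45.9, 49.8 and 45.1 TPM in BM1 to BM3. YS lines were above FL lines and FL lines above BM lines without overlap, with a log2 difference of 0.70 ± 0.14 (SE, adjusted p = 0.01005) between YS and BM lines and 0.43 ± 0.14 (SE, adjusted p = 0.111) between YS and FL lines. Parp1 was at 289, 186 and 130 TPM in YS1 to YS3, 154, 129 and 131 TPM in FL1 to FL3, and 113, 116 and 105 TPM in BM1 to BM3. Line YS1 was far above the rest and YS3 was within the FL range, so only BM lines were clear of YS lines. Compared with BM lines, YS lines differed by 0.78 ± 0.25 (SE, adjusted p = 0.0453) on the log2 scale. Without YS3 it became 1.06 with an adjusted p of 0.00959 and met both thresholds.

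Glycosylases open the base excision pathway. Ogg1, which removes oxidised guanine, was at 22.5, 19.2 and 25.8 TPM in YS1 to YS3, 21.4, 25.4 and 25.8 TPM in FL1 to FL3, and 15.8, 16.5 and 16.3 TPM in BM1 to BM3. BM lines were the lowest and tightly grouped, and YS and FL lines overlapped. The log2 difference was 0.44 ± 0.14 (SE, adjusted p = 0.0431) for YS lines and 0.55 ± 0.14 (SE, adjusted p = 0.0245) for FL lines against BM lines, and -0.11 ± 0.14 (SE, adjusted p = 0.646) between YS and FL lines. Ung, which removes uracil, was at 30.5, 21.1 and 19.4 TPM in YS1 to YS3, 17.6, 17.4 and 16.1 TPM in FL1 to FL3, and 14.03, 15.7 and 15.5 TPM in BM1 to BM3. YS lines were above FL lines, which were above BM lines, and YS1 stood apart. The log2 difference was 0.59 ± 0.17 (SE, adjusted p = 0.0327) between YS and BM lines and 0.43 ± 0.17 (SE, adjusted p = 0.163) between YS and FL lines. Apex1, the endonuclease that cuts next to the missing base, had the widest spread of any of the 42 genes with over 5 TPM, at 233, 117 and 59.97 TPM in YS1 to YS3, 70.6, 57.5 and 67.03 TPM in FL1 to FL3, and 89.5, 86.2 and 84.4 TPM in BM1 to BM3. YS1 was the highest line, YS3 was below all BM lines and within the FL range, and FL lines were all below BM lines. Its log2 difference between YS and FL lines was 0.85 ± 0.39 (SE, adjusted p = 0.214), the largest of the 42 genes in that comparison but not past the rate. Leaving out YS3 moved it to 1.34 with an adjusted p of 0.0411, which met both thresholds. In the GENCODE M21 annotation, 61.7% of the exon bases of Apex1 lie opposite exons of Pip4p1. Lig3, the partner ligase of XRCC1, was past the rate in no comparison, with YS and FL lines all above BM lines and a log2 difference between YS and BM lines of 0.37 ± 0.17 (SE, adjusted p = 0.1302).

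Nucleotide excision repair held the gene with the lowest adjusted p between YS and BM lines. Ercc2, a helicase of the transcription factor IIH complex that opens DNA around a lesion, was at 36.3, 33.6 and 32.4 TPM in YS1 to YS3, 25.5, 28.7 and 23.8 TPM in FL1 to FL3, and 21.2, 22.8 and 22.8 TPM in BM1 to BM3. The groups did not overlap, with YS lines the highest and BM lines the lowest. The log2 difference was 0.59 ± 0.11 (SE, adjusted p = 0.00745) between YS and BM lines, a change of 1.51-fold, and 0.38 ± 0.11 (SE, adjusted p = 0.0807) between YS and FL lines. Ercc1, a subunit of the nuclease that cuts on the 5′ side of the lesion, went the other way. It was at 29.7, 31.9 and 39.03 TPM in YS1 to YS3, 29.9, 29.8 and 33.9 TPM in FL1 to FL3, and 42.2, 45.4 and 46.4 TPM in BM1 to BM3. BM lines were above all YS and FL lines, which overlapped. The log2 difference was -0.41 ± 0.13 (SE, adjusted p = 0.0415) for YS lines and -0.51 ± 0.13 (SE, adjusted p = 0.0241) for FL lines against BM lines. Xpa, the damage verification protein, had overlapping groups in each comparison and was past the rate in none.

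**Figure D3:**
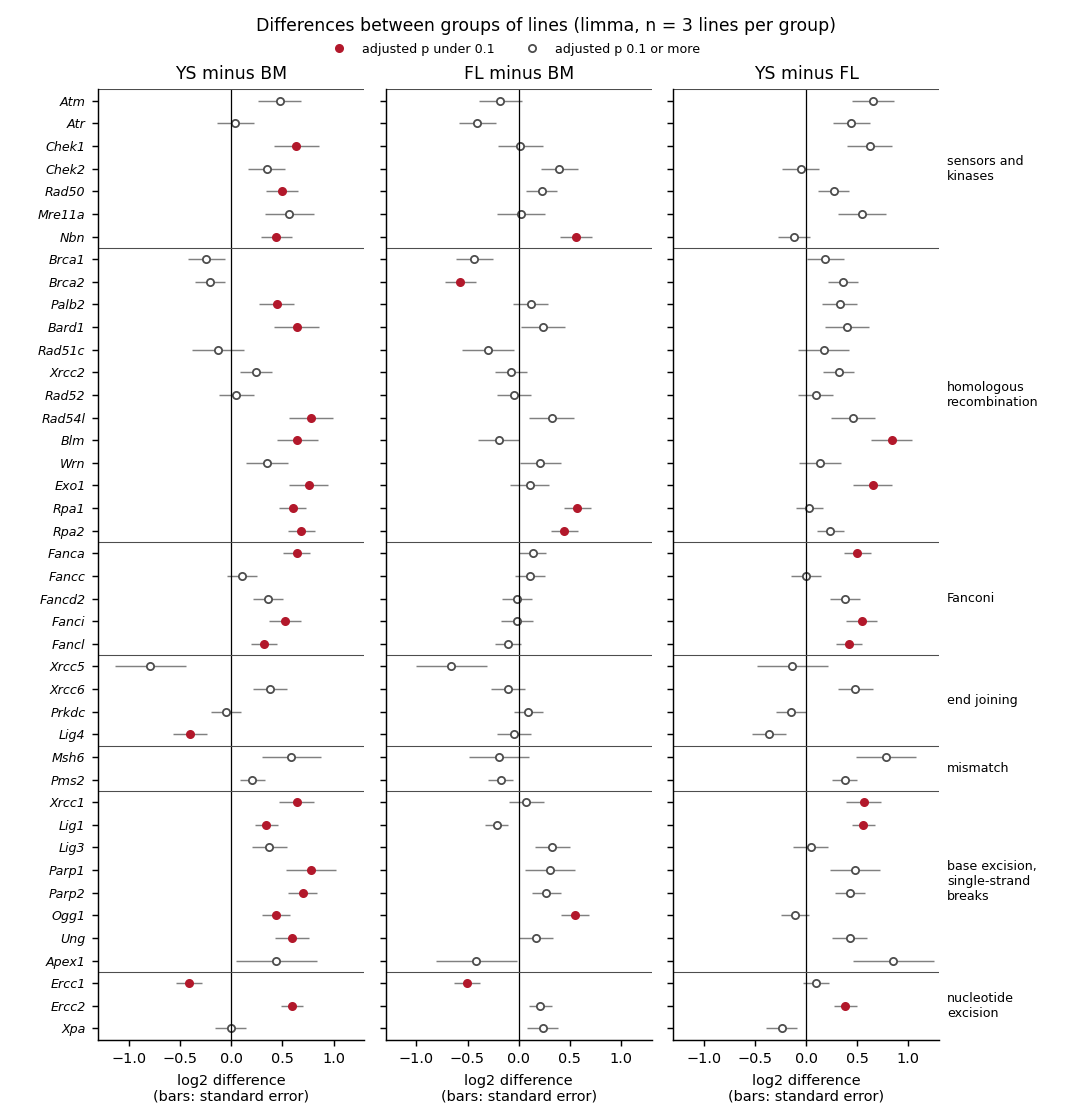
Log2 difference of each of the 42 genes (rows, grouped by role) with its standard error (bars) in the 3 comparisons (panels), with filled red points for an adjusted p under 0.1 in limma and n = 3 lines per group. There are 22 red points in the first panel, 6 in the second and 8 in the third.

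Looked at by gene, 23 of the 42 were past the rate in at least 1 comparison and 19 in none. The same count was not made over all tested genes, so it only sorts the genes and is no result about them. Against FL lines, the 8 genes higher in YS lines were Blm, Exo1, Fanca, Fanci, Fancl, Xrcc1, Lig1 and Ercc2. Against BM lines, Nbn, Rpa1, Rpa2 and Ogg1 were higher and Brca2 and Ercc1 lower in FL lines. For 13 of the 42 genes the YS lines were all above the FL and BM lines, against 7.88% of all tested genes. They were Blm, Exo1, Fanca, Fanci, Fancl, Xrcc6, Msh6, Pms2, Xrcc1, Lig1, Parp2, Ung and Ercc2. The group with the highest mean TPM was YS for 30 genes, FL for 6 and BM for 6, and the shares over all tested genes were not counted. Counted by comparison, lines did not overlap for 27 genes higher and 2 lower in YS than in BM lines, against 30.3% and 18.7% of all tested genes (49% in either direction). They did not overlap for 15 higher and none lower in YS than in FL lines, against 12.6% and 13.5% (26.1% in either direction), and for 12 higher and 7 lower in FL than in BM lines, against 31% and 18.5% (49.5% in either direction).

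**Figure D4:**
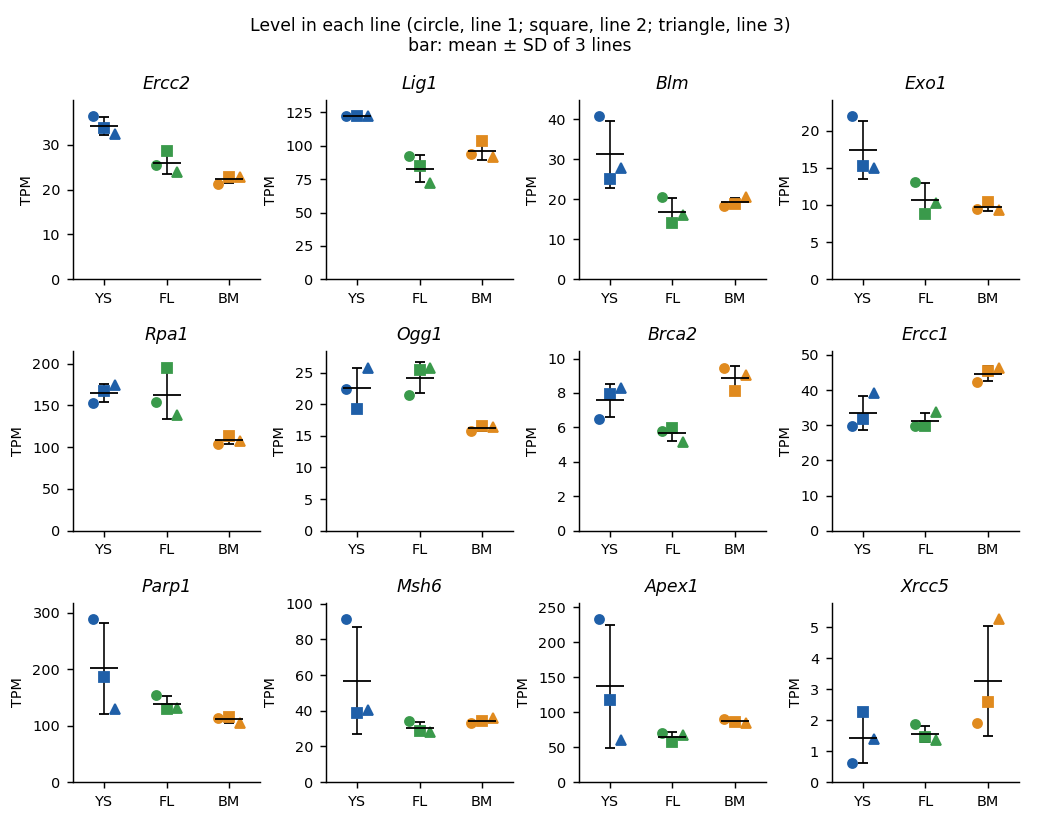
TPM (vertical axis, from 0) of 12 of the genes in each line (circle, line 1; square, line 2; triangle, line 3), with the mean and SD of the 3 YS, FL and BM lines. Ercc2, Lig1, Blm and Exo1 are highest in all YS lines, Rpa1 and Ogg1 are lowest in BM lines, Brca2 is lowest in FL lines and Ercc1 highest in BM lines, while Parp1, Msh6 and Apex1 are spread widely over YS lines and Xrcc5 over BM lines.

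The YS lines also differed among themselves. The median coefficient of variation of the 42 genes was 20.02% in YS, 12.04% in FL and 5.64% in BM lines, close to the 20.9%, 13.8% and 8.61% of all tested genes. For 38 genes the SD in TPM was larger in YS than in BM lines, and for 33 it was larger in FL than in BM lines. The shares over all tested genes were not counted, so these counts are no result about the 42 genes. The highest YS line was YS1 for 19 genes, YS3 for 20 and YS2 for 3. YS1 exceeded the mean of YS2 and YS3 by the ratio of 2.64 for Apex1, 2.32 for Msh6, 1.83 for Parp1, 1.54 for Blm and 1.51 for Ung. YS3 was the highest line for Rad54l and for every gene of the sensor group but Atr. Centred on the mean of each gene, the median log2 level of the 42 genes was 0.31, 0.042 and 0.29 in the YS lines, 0.033, -0.13 and -0.20 in the FL lines and -0.16, -0.12 and -0.17 in the BM lines. YS2 was thus near FL1, and the BM lines were alike.

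Lists of genes of DNA replication and of mitosis moved along with the repair genes in part. The median centred level of 21 replication genes was 0.33, 0.14 and 0.15 in YS lines, 0.054, -0.17 and -0.18 in FL lines and -0.15, -0.052 and -0.090 in BM lines. Each YS line was above the others for this list too, and FL1 was the highest of the FL lines for both lists. Of the replication genes, 10 were past the rate and higher and 3 lower in YS than in BM lines, with a median log2 difference of 0.38, against 23.5% and 14.4% of all tested genes. In YS against FL lines 3 were higher and none lower, with a median of 0.32, against 6.2% and 6.56% of all. The 15 mitosis genes had a median centred level of 0.37, 0.022 and 0.18 in YS lines, 0.11, -0.47 and -0.29 in FL lines and 0.13, 0.036 and -0.0038 in BM lines. Here BM lines were near YS2. In YS against BM lines, 2 mitosis genes were past the rate and higher and 2 lower, against 23.5% and 14.4% of all tested genes. Their median log2 difference was 0.15, and 11 of 15 differences were above 0, against 58.8% of all. In YS against FL lines, 2 were higher and none lower, with a median of 0.44 and 14 of 15 differences above 0, so that in this comparison the mitosis genes stood higher together with the repair genes. Whether proliferation has a part in the levels of the repair genes was not tested.

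**Figure D5:**
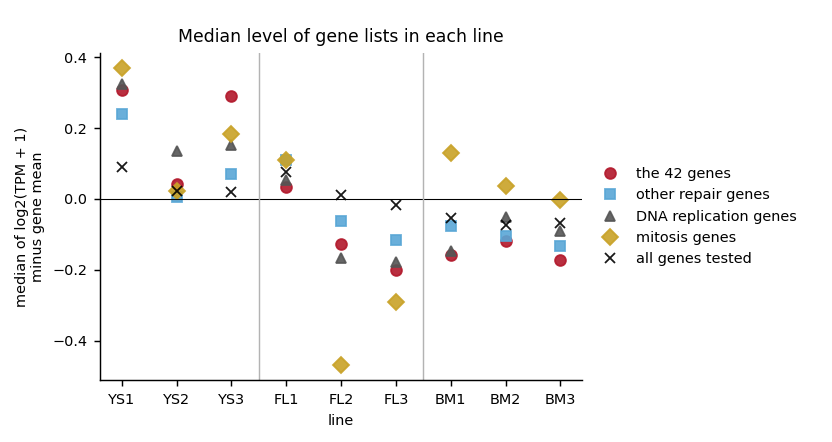
Median over each gene list of log2(TPM + 1) minus the mean of the gene (vertical axis) in each of the 9 lines (horizontal axis) for the 42 genes, the wider repair list, DNA replication genes, mitosis genes and all tested genes. The 42 genes lie at 0.31 in YS1 and 0.29 in YS3, at 0.042 in YS2, and below -0.11 in all BM lines.

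A wider list of 112 other checkpoint and repair genes, of which 111 were tested and Neil2 was not, was summarised in the same way. Its median log2 difference was 0.23 between YS and BM lines, 0.16 between YS and FL lines and 0.09 between FL and BM lines. Between YS and BM lines 44 genes (39.6%) were past the rate, 33 higher and 11 lower, against the 37.9% of all tested genes. Those higher, where 23.5% of all tested genes were, were 12 of 24 other recombination genes, 8 of 21 other checkpoint genes, 4 of 10 other Fanconi genes, 3 of 7 other end joining genes, 5 of 19 other base excision genes, 1 of 16 other nucleotide excision genes, and none of 5 other mismatch repair and 9 translesion synthesis genes. Those lower were 3 end joining, 3 nucleotide excision and 2 base excision genes and 1 each of the checkpoint, recombination and translesion genes, where 14.4% of all tested genes were. In YS against FL lines 11 genes (9.91%) were past the rate, 8 higher and 3 lower, below the 12.8% of all tested genes. In FL against BM lines 19 (17.1%) were past it, 9 higher and 10 lower, below the 27.6% of all.

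Of the wider list, 4 genes (3.60%) were called for YS against BM lines, 1 (0.901%) for FL against BM lines and 1 (0.901%) for YS against FL lines, below the 12.8%, 10.3% and 3.79% of all tested genes. Mgmt, which reverses guanine alkylation, was at 10.1, 29.6 and 1.39 TPM in YS1 to YS3, 14.9, 52.4 and 16.7 TPM in FL1 to FL3, and 66.8, 57.8 and 64.00 TPM in BM1 to BM3. YS lines were all below BM lines but ranged widely among themselves, with a log2 difference of -2.77 ± 0.83 (SE, adjusted p = 0.0382) between YS and BM lines. Polm, a polymerase of end joining, was at 4.74, 8.32 and 2.47 TPM in YS1 to YS3, 7.69, 11.8 and 8.46 TPM in FL1 to FL3, and 14.1, 13.5 and 13.6 TPM in BM1 to BM3, and its log2 difference between YS and BM lines was -1.37 ± 0.32 (SE, adjusted p = 0.0171). Alkbh2, which reverses alkylation by oxidation, was at 20.1, 20.1 and 27.4 TPM in YS1 to YS3, 15.1, 8.97 and 18.7 TPM in FL1 to FL3, and 8.61, 11.6 and 10.9 TPM in BM1 to BM3, with a log2 difference of 1.05 ± 0.26 (SE, adjusted p = 0.0191). All YS lines of both genes were clear of the BM lines, in opposite directions. Rmi2, a partner of BLM, was at 2.55, 1.77 and 2.25 TPM in YS1 to YS3, 3.08, 0.49 and 0.93 TPM in FL1 to FL3, and 0.24, 0.71 and 0.40 TPM in BM1 to BM3. At this low level, the log2 difference between YS and BM lines was 1.14 ± 0.37 (SE, adjusted p = 0.0488). Gtf2h3, a subunit of the same complex as Ercc2, was at 10.1, 12.8 and 9.04 TPM in YS1 to YS3, 5.83, 8.70 and 9.37 TPM in FL1 to FL3, and 19.3, 16.7 and 20.4 TPM in BM1 to BM3. FL lines were all below BM lines, with a log2 difference of -1.16 ± 0.20 (SE, adjusted p = 0.00521), and YS lines were also below them, with -0.77 ± 0.20 (SE, adjusted p = 0.0226). Mpg, a glycosylase for alkylated purines, was at 7.64, 6.22 and 6.02 TPM in YS1 to YS3, 15.4, 15.4 and 15.7 TPM in FL1 to FL3, and 14.1, 13.7 and 8.76 TPM in BM1 to BM3. YS lines were below all FL lines, with a log2 difference of -1.12 ± 0.19 (SE, adjusted p = 0.0234).

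None of the 42 genes lies on chromosome 19 in the reference annotation, and 6 of the wider list do, namely Rad9a, Mus81, Smc5, Poll, Fen1 and Ddb1. All 6 were past the rate and lower in FL than in BM lines, with a median log2 difference of -0.86, against 10.6% of all tested genes. In YS against BM lines 3 were past it and lower, against 14.4% of all, with a median of -0.44 over the 6. The 6 are thus among the 10 genes of the wider list lower in FL than in BM lines. Of the 8 genes of that list higher in YS than in FL lines, 3 lie on this chromosome. Fen1, the flap endonuclease that works just before Lig1, was at 114, 84.5 and 108 TPM in YS1 to YS3, 61.2, 58.5 and 59.6 TPM in FL1 to FL3, and 116, 102 and 117 TPM in BM1 to BM3. FL lines were far below both others, with a log2 difference of -0.89 ± 0.13 (SE, adjusted p = 0.002597) against BM lines, and YS and BM lines overlapped. Lig1, on another chromosome, differed between FL and BM lines by -0.22 ± 0.11 (SE, adjusted p = 0.208). Ddb1, a subunit of the complex that binds damaged DNA for nucleotide excision, was at 189, 161 and 145 TPM in YS1 to YS3, 131, 114 and 123 TPM in FL1 to FL3, and 239, 211 and 245 TPM in BM1 to BM3, with a log2 difference of -0.91 ± 0.12 (SE, adjusted p = 0.00203) between FL and BM lines.

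Several of the 42 genes share exon sequence with a neighbour on the opposite strand in GENCODE M21. Beside Apex1, the share of exon bases was 25.1% for Lig3 with Rffl, 24.6% for Ercc2 with Gm26852, 16.4% for Fancc with Gm16133, 15.95% for Fanci with Polg, 15.4% for Rad54l with Lrrc41 and 13.7% for Fancl with Vrk2. It was 17.8% for Ercc2 with Klc3, 10.6% for Ogg1 with Camk1, 10.5% for Fanca with Zfp276 and 7.69% for Xrcc6 with Desi1. Further genes had shares of 5.79% (Lig1 with Zswim9) or less. The libraries kept the strand, but whether the counting used it is not given in the sources used here. The levels of these genes are therefore less certain than those of genes without such an overlap.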

How the data were processed

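Poly(A)-selected, strand-specific RNA-seq libraries of 3 YS, 3 FL and 3 BM lines were made by the authors, who deposited TPM for 24411 gene symbols, with the same total in each library. Per the labels, the submitters' processing notes name Trim Galore 0.6.6, STAR 2.7.9a and RSEM 1.3.3. The genome build and annotation are not given in the sources used here. Raw counts were not used here, and TPM does not record depth. No counting error can be given, and the spread over 3 lines is the only measure of precision.

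Groups and line numbers came from the sample titles. Genes that reached 1 TPM in 3 or more libraries were tested on log2(TPM + 1) with limma 3.58.1 in R 4.3.3 (1 model for the 9 libraries, moderated variances with a trend on intensity, two-sided, Benjamini-Hochberg over 11753 genes within each comparison). The test was checked on simulated data for YS against BM lines only, with the same spread for a gene in every group. The spread of the real groups was unequal, and the check does not cover that case. Alternatives changed the pseudocount (0.1 or 4), the filter, the scaling, the variance trend and the libraries fitted, added a replicate block, or left out 1 line at a time.

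The 42 genes and the other lists were chosen with earlier results of these data known. Values in every line are given for the genes past a false discovery rate of 0.1 in any comparison, the 3 highest and 3 lowest by mean TPM, those with over 3-fold spread within a group at 5 TPM or more, and the genes of the wider repair list called in any comparison. Atm, Mre11a, Brca1, Fancd2, Xrcc6, Prkdc, Msh6, Pms2, Fen1 and Ddb1, and the promoters shown, were chosen after their values were seen. Exon overlaps came from GENCODE M21, and chromosomes and promoters from RefSeq for GRCm38.p6. The ATAC-seq and functional assays of the study were not analysed here.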

Additional observations from a re-analysis of the deposited data

How the results depend on the processing

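No gene of the 42 was called under any of the alternative pseudocounts, filters, scalings, fits or the replicate block. With a line left out, 0 to 1 genes were called in either comparison with YS lines (Xrcc5, Parp1 or Apex1). Past the false discovery rate alone, leaving out a line gave 9 to 27 genes for YS against BM lines (22 with all lines), 2 to 8 for FL against BM lines (6 with all) and 0 to 13 for YS against FL lines (8 with all). For YS against BM lines, the 9 came without BM3, against 21.9% of all tested genes, and the 27 without YS2, against 36.6%. For FL against BM lines, the 2 came without BM3, against 15.04% of all, and the 8 without YS1 or YS3, against 37.2% and 32.7%. For YS against FL lines, none was left without FL3, against 2.34% of all, and the 13 came without YS2, against 14.7%. With quantile normalization and median-of-ratios scaling the count was 16 and 17 for YS against BM lines, against 36.1% and 37.04% of all. For YS against FL lines the count was 4 (9.52%) with no filter on low values, against 7.01% of all. It was 0 with only the 6 libraries compared, against 0.834% of all. For FL against BM lines it was 12 (28.6%) with only the 6 libraries compared, against 40.5% of all. The median log2 difference between YS and BM lines was 0.31 with quantile normalization, under which the median of all genes fell from 0.11 to -0.010. The median between FL and BM lines was between -0.037 and 0.12 with a line left out, and -0.056 and -0.043 with quantile normalization and median-of-ratios scaling. The cause of these shifts was not tested. Over the 36 differences past the rate, 503 of 648 values under alternatives kept their direction and side of the threshold, 145 kept the direction only, and none reversed. Past the rate under every alternative were Ercc2, Exo1, Fanca, Parp2, Rpa1, Rpa2 and Xrcc1 between YS and BM lines, Ogg1 and Rpa1 between FL and BM lines, and no gene between YS and FL lines.

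Groups share line numbers in the labels, which do not say that lines are paired, and the correlations of the deviations of same-numbered lines lay between -0.12 and 0.088. With the replicate block, 19 genes (45.2%) were past the rate for YS against BM lines, against 37.2% of all tested genes. It was 6 (14.3%) for FL against BM lines, against 26.01% of all, and 5 (11.9%) for YS against FL lines, against 10.5%. The number of lines and the unknown depth limit the precision, and a gene not past the rate is not shown to be equal between groups.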
